A study of Mus musculus with 9 samples.

Results

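The genes described here are 10 members of the Max network of transcription factors and their partner Zbtb17: Myc, Mycn, Mycl, Max, Mnt, Mxd1, Mxd3, Mxi1, Mlx and Zbtb17. They were found by an exact match of gene symbol in the authors' table, which held all 10 among its 13499 genes. RNA was measured in mouse embryonic stem (ES) cells of the C57BL/6 strain, grown on gelatine in medium with LIF, the cytokine that keeps them undifferentiated. The cells were separated on a cytometer into a High, a Medium and a Low population, named by Myc level, with 3 libraries each that the submitters describe as biological replicates. The sort was on GFP-Myc, Myc carrying a green fluorescent tag, or on EYFP, a yellow fluorescent protein. The labels leave unsaid which of these reporters each library was sorted on, whether the cells came from 1 clone, or how the tagged Myc was brought into them. No unsorted population was analysed here.

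Myc, Mycn and Mycl are basic helix-loop-helix leucine zipper proteins that bind DNA only as a dimer with Max, at E-box sequences, and activate genes of growth, ribosome production and metabolism. Mnt and the Mxd proteins (Mxd1, Mxd3 and Mxi1, also called Mxd2) compete for Max and for the same sites, and bring the SIN3 histone deacetylase corepressor to them. Mlx is a Max-like protein with its own partners, and Zbtb17, also called Miz1, is a zinc finger protein through which Myc can hold genes down. In mouse ES cells Myc and Mycn can stand in for each other in keeping the cells self-renewing.

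Levels are given as deposited, as read counts normalized by the authors to about a CPM scale. The 9 libraries held 11114936 to 16755566 recovered reads. Low replicates 1 and 2 differed most from each other among all replicate pairs, and the libraries differed in their balance of long against short transcripts. After centring each gene, the median of genes with transcripts of at least 4728 nt minus that of genes with at most 2100 nt was 0.25, -0.06 and -0.07 log2 in High, 0.30, -0.05 and 0.25 in Medium and 0.28, -0.59 and -0.27 in Low. All 10 ES cell markers were measured, and their summed level was 6210 to 6971 in High, 5919 to 6548 in Medium and 5084 to 6660 in Low. Of these, 4 were called higher and 0 lower in High than in Low. Among all genes, 13.8% were called higher and 14.6% lower. Of 11 trophoblast markers 8 were measured, with a summed level of 133 to 140 in High, 220 to 243 in Medium and 474 to 572 in Low. Of these, 7 were called lower and 0 higher in High than in Low. Cdx2, Elf5 and Hand1 were not among the gene names. Only 3 of 9 primitive endoderm markers were measured (428 to 442 in High, 338 to 361 in Medium and 221 to 237 in Low), without Gata6, Gata4 and Sox17, and of these Sparc and Sox7 were called higher and Dab2 lower in High than in Low. All 5 primed epiblast markers were measured (1222 to 1328 in High, 1160 to 1278 in Medium and 799 to 975.1 in Low), of which 1, Dnmt3a, was called higher and 3, Otx2, Fgf5 and Pou3f1, lower. Of 10 fibroblast and feeder markers 8 were measured (987 to 1291 in High, 875 to 1118 in Medium and 443 to 906 in Low), and Postn among them averaged 0.884. Of these, 2 were called higher and 0 lower. Of 5 neural markers 4 were measured (108 to 112 in High, 112 to 120 in Medium and 108 to 117 in Low), with 2 called higher and 1 lower. The part of these marker genes, and of transcript length except where stated, in the results for the network genes was not tested. In bulk RNA, fewer cells of a type and less RNA per cell cannot be told apart. The p-values measure the spread between these 9 libraries.

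Between the ends of the sort, High and Low, Myc RNA followed the sort, Mycn was slightly lower in High, Zbtb17 was higher in High, and the other 7 network genes did not pass the test. Tests were made with limma on log2 values over the whole table, with Benjamini-Hochberg adjustment over all 13499 genes and a threshold of 0.05. Of the 9 genes other than Myc, 2 were called, against 28.4% of all genes (13.8% higher and 14.6% lower in High). The libraries of High and Low did not overlap for 4 of these 9 genes (Max and Zbtb17 higher, Mycn and Mycl lower in High), against 41.6% of all genes (20.2% higher and 21.4% lower). With 3 libraries against 3, an exact two-sided permutation test of a single gene cannot go below p = 0.1, which is what each of these 4 genes gave. The median log2 fold change of the 10 genes, Myc included, was 0.06, against -0.00 over all genes.

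Myc (chromosome 15, 61985391 to 61990374 on GRCm38, plus strand) is the gene by whose level the sorted populations were named. Its levels are therefore given as a description, and no test of it is read as a result. It had 112, 101 and 106 normalized counts in the High libraries, 70.0, 65.5 and 65.8 in Medium and 26.3, 27.6 and 24.2 in Low. The 3 populations were separate, with every High library above every Medium library and every Medium library above every Low library. The means were 106 ± 5.71 in High, 67.1 ± 2.54 in Medium and 26.0 ± 1.75 in Low (SD, n = 3 each). High exceeded Low 4.08-fold and Medium 1.59-fold, and Medium exceeded Low 2.58-fold. Reads from tagged and untagged Myc are not separated in a gene count.

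Mycn (chromosome 12, 12936093 to 12941914, minus strand), the close relative of Myc first known from neuroblastoma, ran the other way by a small amount. It had 203, 225 and 218 normalized counts in High, 233, 241 and 234 in Medium and 247, 249 and 259 in Low. As with Myc, the 9 libraries fell in the order of the populations without overlap, but reversed, with every Low library highest. The means were 216 ± 10.99 in High, 236 ± 4.64 in Medium and 251 ± 6.41 in Low, and High was 1.167-fold lower than Low. The log2 fold change of High against Low was -0.22 (SE 0.07, 95% confidence interval -0.38 to -0.07, limma adjusted p = 0.0393), and same-numbered High libraries were lower in 3 of 3 pairs. The call was lost when any High library, Medium replicate 2 or 3, or Low replicate 2 or 3 was left out, with limma adjusted p from 0.0582 to 0.147. It was kept in edgeR (adjusted p = 0.0441) and DESeq2 (adjusted p = 0.00797) on the recovered reads.

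Across the table, 4.66% of genes had all 9 libraries in the order High above Medium above Low, and 5.22% in the reverse order. Of the 10 network genes, Myc had the first order and Mycn the second, and none of the other 8 had either.

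Mycl (chromosome 4, 122995652 to 123002485, plus strand), the paralog first found in lung cancer, was highest in the middle population. It had 17.1, 16.9 and 17.5 normalized counts in High, 21.5, 21.1 and 21.5 in Medium and 18.9, 20.8 and 19.9 in Low. All High libraries lay below all Low libraries, and all Low libraries below all Medium libraries. The difference did not pass for High against Low (log2 fold change -0.20, 95% confidence interval -0.38 to -0.01, limma adjusted p = 0.105) or for High against Medium (-0.30, -0.48 to -0.11, limma adjusted p = 0.181). The distance of Medium from the midpoint of High and Low was 0.20 log2 (0.04 to 0.36), with limma adjusted p = 0.709.

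**Figure D1:**
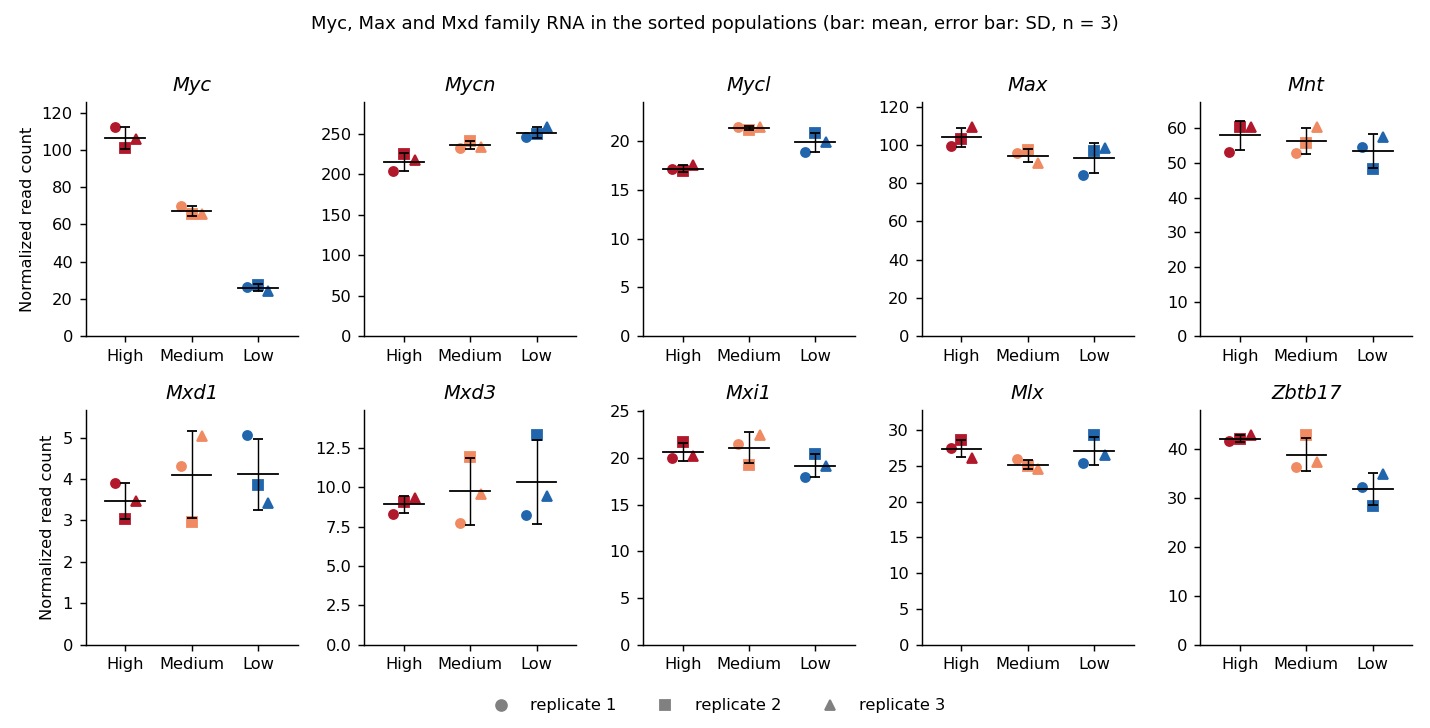
Normalized read count of each of the 10 genes in every library (points, shaped by replicate), with the mean as a bar and the SD as an error bar (n = 3), for High, Medium and Low; each y axis starts at 0 and has its own range. Myc lies between 101 and 112 in High and between 24.2 and 27.6 in Low, Mycn runs in the opposite order over a much narrower range, Zbtb17 separates High from Low, and the points of Mnt, Mxd1, Mxd3, Mxi1 and Mlx in High and Low overlap.

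Max (chromosome 12, 76937269 to 76962201, minus strand) is the shared partner of the Myc and Mxd proteins, without which the Myc proteins do not bind DNA. It had 99.6, 103 and 109 normalized counts in High, 95.6, 97.1 and 90.4 in Medium and 84.0, 96.96 and 98.6 in Low. High lay above both other populations in every library, though the lowest High library and the highest Low library nearly met. The log2 fold change of High against Low was 0.16 (95% confidence interval -0.03 to 0.35) and did not pass, with limma adjusted p = 0.186. After a correction for transcript length within each library it was 0.23 and passed, with limma adjusted p = 0.0124. Low replicate 1 was the lowest of the 9 libraries and stood apart from the other Low libraries.

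The E-box CACGTG, which reads the same on both strands, is the preferred site of Max dimers and was searched for in RefSeq promoter windows (GRCm38.p6), from 250 bases before to 50 bases after each gene's start. Of the 10 genes 9 had a window, Myc being the one without. Mxi1 had 3 windows, Zbtb17 had 2 and each of the others had 1. The hexamer was in 1 window each of 3 of the 9 genes. Among all promoters it was present in 2349 of 32851 windows (7.15%), which is a share of windows and not of genes. These 3 stretches, of Max, Mnt and Mlx, are shown because their genes code for a shared partner, an antagonist and the partner of the parallel branch. The E-box is in capitals with 20 flanking bases on each side, and each is written 5′ to 3′ on the gene's own strand.
Max: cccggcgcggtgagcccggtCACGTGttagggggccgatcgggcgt
Mnt: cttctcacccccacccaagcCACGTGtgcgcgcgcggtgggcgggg
Mlx: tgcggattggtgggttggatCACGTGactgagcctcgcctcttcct
The Max stretch is chr12:76962226-76962271 on the minus strand, and its E-box spans RefSeq's start, with 3 bases before and 3 after it; GENCODE's start of Max, given above, lies downstream of the E-box. That of Mnt is chr11:74830781-74830826 on the plus strand, with the E-box starting 123 bases before RefSeq's start. That of Mlx is chr11:101087230-101087275 on the plus strand, with the E-box starting 40 bases before it. A match of letters describes the sequence and was not tested for binding. None of these 3 genes passed between High and Low without the length correction, and the windows of Mycn and Zbtb17, which did pass, held no such hexamer.

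Of the antagonists Mnt, Mxi1, Mxd3 and Mxd1, 0 were called, beside 28.4% of all genes, and the libraries of High and Low overlapped for each. Mxd4, an antagonist outside these 10 genes, was called and is described with the wider network. Mnt (chromosome 11, 74830920 to 74845725, plus strand), the antagonist found in most cell types, had 53.2, 60.5 and 60.3 normalized counts in High, 52.9, 55.7 and 60.4 in Medium and 54.5, 48.1 and 57.6 in Low. High replicates 2 and 3 lay above all Low libraries, and High replicate 1 did not. Its log2 fold change was 0.12 (95% confidence interval -0.10 to 0.33, limma adjusted p = 0.390).

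Mxi1 (chromosome 19, 53310518 to 53375810, plus strand) had 20.01, 21.7 and 20.2 normalized counts in High, 21.5, 19.2 and 22.5 in Medium and 17.9, 20.4 and 19.2 in Low. Only Low replicate 2 reached into the range of High. The log2 fold change of High against Low was 0.10 (-0.11 to 0.32, limma adjusted p = 0.456).

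Mxd3 (chromosome 13, 55325168 to 55329823, minus strand), the Mxd gene linked to dividing cells, had 8.32, 9.07 and 9.33 normalized counts in High, 7.70, 12.0 and 9.58 in Medium and 8.23, 13.3 and 9.46 in Low. Replicate 2 was the highest library in Medium and in Low, and replicate 1 the lowest in each population. The log2 fold change was -0.17 (-0.59 to 0.25, limma adjusted p = 0.543).

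Mxd1 (chromosome 6, 86647042 to 86669161, minus strand), the Mxd gene known to rise when many cell types differentiate, was the least abundant, with 33 to 79 reads per library. It had 3.90, 3.02 and 3.46 normalized counts in High, 4.30, 2.97 and 5.04 in Medium and 5.07, 3.85 and 3.42 in Low. The Medium libraries alone spanned nearly the whole range of the 9. Its log2 fold change was -0.18 (-0.59 to 0.23, limma adjusted p = 0.492).

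Mlx (chromosome 11, 101087277 to 101092207, plus strand), which pairs with the sugar-sensing factors Mlxip and Mlxipl as well as with Mxd1 and Mnt, had 27.5, 28.6 and 26.1 normalized counts in High, 26.0, 24.99 and 24.6 in Medium and 25.5, 29.3 and 26.6 in Low. Medium was slightly below High in every library, and Low overlapped both. For High against Low the log2 fold change was 0.02 (-0.18 to 0.21, limma adjusted p = 0.898), and its sign turned with quantile normalization and with equal column totals (-0.01 each).

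Zbtb17 (chromosome 4, 141444654 to 141467930, plus strand), the Miz1 gene, was the network gene other than Myc with the highest ratio of High to Low. It had 41.6, 42.0 and 42.9 normalized counts in High, 36.4, 42.8 and 37.4 in Medium and 32.3, 28.3 and 34.8 in Low. The High libraries lay close to each other and above every Low library, and Medium replicate 2 reached the level of High. The means were 42.1 ± 0.663 in High, 38.9 ± 3.44 in Medium and 31.8 ± 3.31 in Low (SD, n = 3 each). Zbtb17 rose 1.33-fold in High over Low, with a log2 fold change of 0.40 (SE 0.10, 95% confidence interval 0.18 to 0.62, limma adjusted p = 0.0149), and was higher in 3 of 3 same-numbered pairs. The call was kept in edgeR (adjusted p = 0.0161) and DESeq2 (adjusted p = 0.00278), and was lost without High replicate 3 (limma adjusted p = 0.0533) and without Low replicates 1 and 2 together (log2 fold change 0.27, limma adjusted p = 0.131).

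Neighbouring genes overlap some of these loci in the GENCODE annotation, and whether the counting used strand is not given in the sources used here. Zbtb17 shares 41 nt with Spen on the opposite strand, and Spen was also higher in High, at 156 ± 5.92 against 83.6 ± 37.2 in Low (log2 fold change 0.98, limma adjusted p = 0.0184). Mlx shares 385 nt with Psmc3ip (log2 fold change -0.39, limma adjusted p = 0.0560) and Mxd3 shares 105 nt with Prelid1 (-0.17, limma adjusted p = 0.343), both on the opposite strand. On the same strand, Max shares 1319 nt with Gm47218 and Mxd1 2364 nt with Gm44292. Mxi1 shares 5146 nt with AC133451.2 and 201 nt with Gm10197 on the opposite strand. Gm47218, Gm44292, AC133451.2 and Gm10197 were not among the genes measured. The part of shared reads in these values was not tested.

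**Figure D2:**
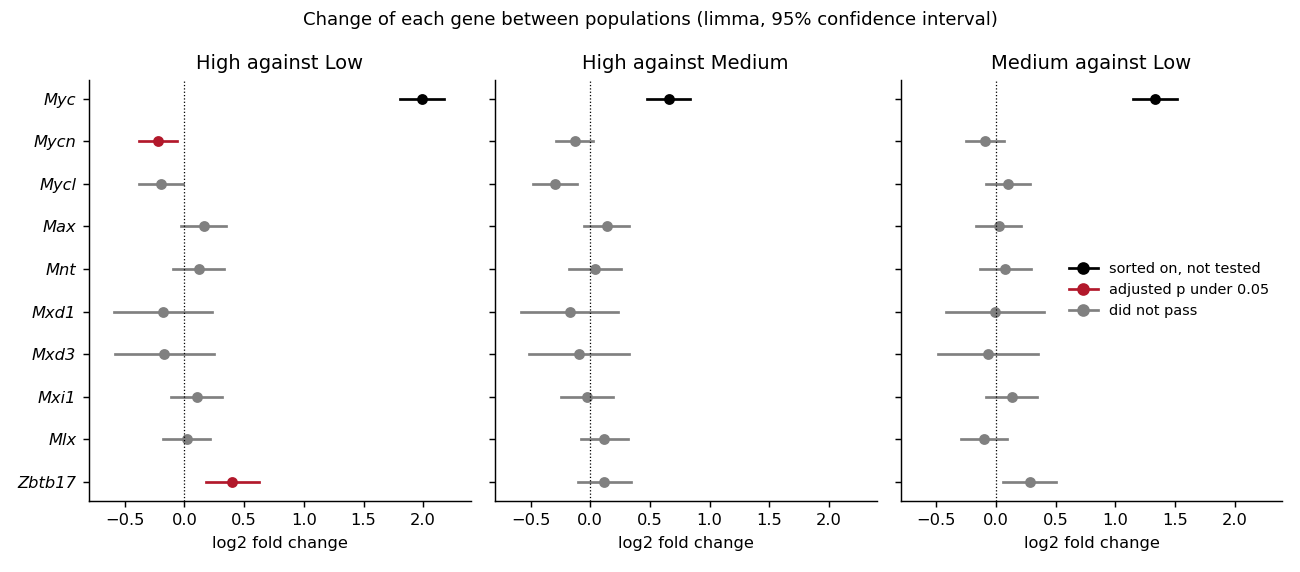
log2 fold change of each gene (point) with its 95% confidence interval (line) from limma, for High against Low, High against Medium and Medium against Low. Red marks an adjusted p under 0.05 and black marks Myc, by whose level the sorted populations were named. Apart from Myc, Zbtb17 at 0.40 and Mycn at -0.22 are marked for High against Low, and no gene is marked in the steps to and from Medium.

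To compare levels between genes, each normalized count was divided by the length of the gene's longest annotated protein-coding transcript in kb. On this per kb scale Mycn was the most abundant of the 10 in every population, at 80.6 in High, 88.2 in Medium and 94.1 in Low. Max followed at 53.6, 48.6 and 48.0 in High, Medium and Low. Myc came next in High and in Medium, at 45.5 and 28.7 per kb, and stood at 11.1 in Low. In Low it came after Mlx (13.8), Zbtb17 (11.7) and Mnt (11.6), and its libraries overlapped those of Mnt, as those of Mnt overlapped those of Zbtb17. In High all neighbours in the order were separate, and in Medium Mlx and Mnt overlapped, as did Mxd3 and Mycl. Mycl (4.91 to 6.10), Mxd3 (6.71 to 7.79) and Mxi1 (3.81 to 4.19) were lower in mean, and Mxd1 was lowest in each population, at 0.741, 0.880 and 0.881 in High, Medium and Low. Transcript choice bears on this scale and on the sums and ratios made from it, since annotated coding transcripts run from 381 to 2338 nt for Myc, 386 to 3501 nt for Mycl, 622 to 4590 nt for Mnt, 418 to 4666 nt for Mxd1 and 833 to 5036 nt for Mxi1.

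The summed RNA of the 3 Myc paralogs differed far less between the populations than Myc did. Per kb, Myc, Mycn and Mycl together came to 129, 132 and 132 in the High libraries, 123, 124 and 122 in Medium and 109, 111 and 113 in Low. The populations did not overlap, and the sum in High was 1.18-fold that in Low, beside 4.08-fold for Myc by itself. Myc made up 34.8% ± 2.31 of the sum in High, 23.3% ± 0.898 in Medium and 10.1% ± 0.782 in Low (SD, n = 3 each). Mycn made up 61.5% ± 2.37 in High, 71.7% ± 0.947 in Medium and 84.8% ± 0.912 in Low. Mycn was thus the major Myc family RNA even in the High population, exceeding Myc 1.78-fold ± 0.184 there, 3.08-fold ± 0.157 in Medium and 8.48-fold ± 0.777 in Low. These sums hold Myc, by whose level the populations were named, so they are given as a description with no test.

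The sum of these 4 antagonists, which leaves out Mxd4, had nearly the same level in the 3 populations. Mnt, Mxd1, Mxd3 and Mxi1 together had 24.2 ± 1.31 per kb in High, 24.7 ± 1.88 in Medium and 24.1 ± 1.34 in Low. The ratio of the Myc paralogs to these antagonists was 5.43 ± 0.233 in High, 5.01 ± 0.411 in Medium and 4.60 ± 0.215 in Low. The lowest High library, at 5.29, lay above the highest Low library, at 4.79, and Medium overlapped both. The ratio of the Myc paralogs to Max was 2.45 ± 0.0978 in High, 2.53 ± 0.0684 in Medium and 2.32 ± 0.170 in Low, with overlapping libraries.

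**Figure D3:**
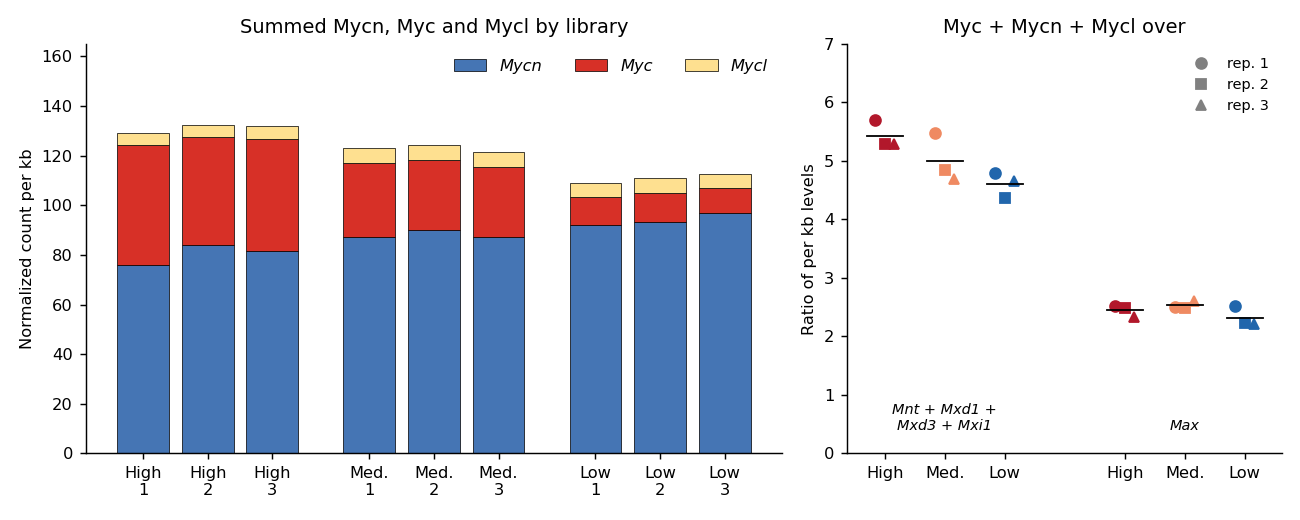
Left, normalized counts per kb of Mycn, Myc and Mycl stacked for each library; right, the ratio of their sum to that of Mnt, Mxd1, Mxd3 and Mxi1 and to Max, with points shaped by replicate and the mean as a bar. The red Myc segment shrinks across High, Medium and Low while the stacks only run between 109 and 132, with Mycn as the tallest segment in all 9 libraries.

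Between High and Medium, none of the 9 genes other than Myc passed, in a comparison that called 0.407% of all genes (0.0815% higher and 0.326% lower). The libraries did not overlap for 4 of these 9 (Max and Mlx higher, Mycn and Mycl lower in High), against 20.1% of all genes (9.34% higher and 10.8% lower). The widest log2 difference of the 9 was that of Mycl, given above, and Mycn gave -0.13 (limma adjusted p = 0.573). Between Medium and Low none of the 9 passed either, against 12.0% of all genes (6.14% higher and 5.87% lower), and 3 had no overlap (Mycl and Zbtb17 higher, Mycn lower in Medium), against 29.6% of all genes (14.5% higher and 15.1% lower). Zbtb17 had a log2 fold change of 0.28 in this step (95% confidence interval 0.06 to 0.50, limma adjusted p = 0.0896) and 0.12 between High and Medium (limma adjusted p = 0.799). High against Medium and Medium against Low share the Medium libraries. For the distance of Medium from the midpoint of High and Low, limma called 0 of 13499 genes (0.0%). An unadjusted limma p under 0.05 was found for 766 of them, near the number this threshold passes where nothing differs. Mycl was among these, with limma adjusted p = 0.709. edgeR called 0 genes and DESeq2 21, none of them among the 9 network genes other than Myc.

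The wider network and its partners were read from 7 lists of textbook genes, whose counts are set beside the 28.4% of all genes called between High and Low. The lists were chosen with earlier results of these data known, so their counts are a description and no independent test. Of 9 other factors that bind E-boxes or pair with Max or Mlx, 3 were higher and 2 lower in High (median log2 fold change 0.10). Mxd4, a further Mxd antagonist, was lower, at 2.13 ± 0.391 in High and 4.05 ± 0.423 in Low (log2 fold change -0.69, limma adjusted p = 0.0174). Bhlhe41, a repressor of the circadian system, was also lower (-0.56). Mga, a very large protein that pairs with Max, was higher, at 307 ± 52.9 in High and 159 ± 75.9 in Low (1.03, limma adjusted p = 0.0205). Mlxip, the sugar-sensing partner of Mlx, was 1.63-fold higher (0.73). After the length correction Mga had 0.61 and Mlxip 0.54. The call for Mxd4 was lost without High replicate 2 or 3 or Low replicate 3 (limma adjusted p 0.0544 to 0.0636), and that for Bhlhe41 without High replicate 1 or 3 or Low replicate 2 (0.0618 to 0.0705). The call for Mga was lost without High replicate 1 or Low replicate 2 or 3 (limma adjusted p 0.0542 to 0.0803), and that for Mlxip without any High library or Low replicate 2 or 3 (0.0612 to 0.0978). The list gave 0 higher and 1 lower without Low replicate 2 or Low replicate 3, beside 22.3% and 17.0% of all genes called. It gave 1 and 1 without High replicate 1 or 2 (19.0% and 18.6%), and 1 and 0 without High replicate 3 (19.5%). Without Low replicates 1 and 2 together, which leaves 1 Low library, the list's median log2 fold change was 0.13.

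SIN3 is the corepressor through which Mxd and Mnt proteins act. Of 16 SIN3 complex genes, 2 were lower in High and 0 higher, so 12.5% were called, with a median log2 fold change of 0.14. Sin3b, a scaffold of the complex, had 82.0 ± 5.15 in High and 124 ± 10.4 in Low (log2 fold change -0.59, limma adjusted p = 0.00166). Rbbp7, a histone-binding subunit, had 621 ± 8.51 in High and 839 ± 98.3 in Low (-0.43). Without Low replicate 1 the counts were 5 higher and 3 lower, beside 43.1% of all genes called. With the replicate block they were 3 and 3, beside 38.8% of all genes, with the length correction 3 and 2, beside 37.7%, and with both 7 and 3, beside 44.1%.

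Max with Mga is also part of the polycomb complex PRC1.6, which keeps germline genes silent in ES cells. Of its 14 genes, 4 were higher and 3 lower in High (median 0.14). E2f6, the E2F factor of the complex, had a log2 fold change of -0.57 (limma adjusted p = 0.00157), and Yaf2, a RING1 partner, had -0.78. L3mbtl2, which binds chromatin, had 0.50 and Wdr5, a scaffold it shares with other complexes, had 0.34. Hdac1 and Hdac2 stand in both this and the SIN3 list, and Mga in both this and the list of other factors.

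Of 21 germline genes under this complex 18 were measured, of which 5 were higher and 4 lower in High (median 0.02). Sycp1, a component of the synaptonemal complex of meiosis, had 12.7 ± 1.53 in High and 6.41 ± 0.770 in Low, a 1.98-fold difference (log2 fold change 0.89, limma adjusted p = 0.000762). Zcwpw1, a histone reader of meiosis, Stag3, a meiotic cohesin, and Mael, of the piRNA pathway, had log2 fold changes of 0.61, 0.69 and 0.66. The 4 called lower in High were Sycp3 (-0.65), Tdrkh (-0.63), Taf7l (-0.62) and Tdrd1 (-0.46). The counts were 4 higher and 1 lower without High replicate 1 (beside 19.0% of all genes called), and 4 and 2 without High replicate 2 (18.6%). They were 4 and 0 without High replicate 3 (19.5%) or Low replicate 3 (17.0%), and 5 and 1 without Low replicate 2 (22.3%).

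Of 40 textbook genes activated by Myc and Max through E-boxes, 10 were higher in High and 0 lower, beside 13.8% of all genes higher and 14.6% lower, and the median was 0.13. Hk2, a hexokinase, was 2.06-fold higher, at 333 ± 44.3 in High and 162 ± 47.2 in Low (log2 fold change 1.07, limma adjusted p = 0.00240). Polr1b, a subunit of RNA polymerase I, had 0.57, Bop1, a ribosome assembly factor, 0.33 and Shmt2, an enzyme of mitochondrial folate metabolism, 0.40. Without High replicate 2 or 3 the count was 6 higher and 0 lower, beside 18.6% and 19.5% of all genes called. Without Low replicate 1 it was 10 and 2, beside 43.1%. The count was 12 higher and 0 lower with the replicate block, beside 38.8% of all genes called. It was 15 and 0 with the length correction, beside 37.7%, and 16 and 0 with both, beside 44.1%. The share of all genes called thus rose with these settings too. Without Low replicates 1 and 2 together, which leaves 1 Low library, the median log2 fold change was 0.10. The call for Shmt2 was lost without Low replicates 1 and 2 (limma adjusted p = 0.0679).

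Of 13 genes described as held down by Myc, with Miz1 or otherwise, 6 were lower and 3 higher in High (median -0.45). Cdkn1a, which codes for the cell cycle inhibitor p21, was 2.18-fold lower, at 21.4 ± 2.55 in High and 46.8 ± 4.53 in Low (log2 fold change -1.09, limma adjusted p = 0.000346). Cdkn1b, which codes for the inhibitor p27, had -0.55 and Btg1, an antiproliferative gene, had -0.71. Ambra1, a gene of autophagy, went against the list's name with 0.64, as did the integrin genes Itga1 (0.95) and Itgb1 (0.30). The longest transcript of Itga1 has 10967 nt, and after the length correction Itga1 had 0.61. The call for Ambra1 was lost without High replicate 1 (limma adjusted p = 0.0542) or Low replicate 3 (limma adjusted p = 0.0578). Those for Itga1 and Itgb1 were lost without either of these libraries, and without some others. The counts were 3 lower and 0 higher without High replicate 1 or Low replicate 3, beside 19.0% and 17.0% of all genes called. They were 4 lower and 1 higher without High replicate 3, beside 19.5%.

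Of 7 targets of Mlx and its partners 6 were measured, with 1 higher and 1 lower in High (median 0.20). Klf10, a zinc finger factor, had 31.0 ± 1.86 in High and 58.5 ± 2.88 in Low (log2 fold change -0.89, limma adjusted p = 6.75e-05). Acaca, the first enzyme of fatty acid synthesis, was 1.78-fold higher (0.87), and its call was lost without Low replicate 3 (limma adjusted p = 0.0529). Its longest transcript has 9513 nt, and after the length correction it had 0.58. The counts were 3 higher and 1 lower with the replicate block, beside 38.8% of all genes called. They were 3 and 2 with the length correction, without the block (37.7%) or with it (44.1%). Between High and Medium, 0 genes of the 7 lists passed, beside 0.407% of all genes.

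**Figure D4:**
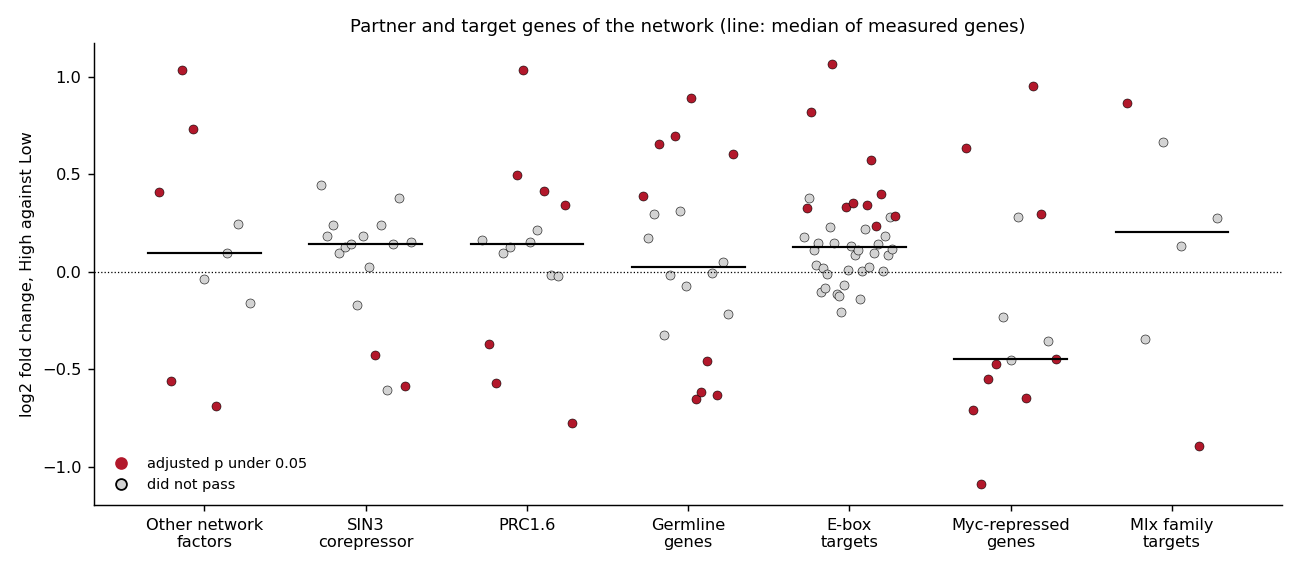
log2 fold change of High against Low for every measured gene of the 7 partner and target lists (points), with the list's median as a line; red marks an adjusted p under 0.05. The E-box targets have red points only above 0 and the SIN3 genes only below 0. The Myc-repressed genes have a median of -0.45, and they and each of the other lists have red points on both sides.

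The genes whose levels over the 9 libraries were most like those of Myc were found by the root mean square difference of centred log2 values, among 9549 genes at or above the 25th percentile of mean level. They were Zmat4 (0.105), the homeobox factor Gbx2 (0.108), the zinc finger factor Zfp423 (0.123), Spata31d1b (0.129), Nkx6-3 (0.130) and the Ras relative Mras (0.132). Zmat4 had 26.5 ± 3.51 normalized counts in High, 18.3 ± 0.969 in Medium and 6.22 ± 0.0794 in Low. The genes nearest to the mirror image of Myc were Ap3b2 (0.0879), Aif1l (0.102), the syndecan Sdc4 (0.128), Atg16l2 (0.133), the myelin gene Mbp (0.133) and the Nodal inhibitor Lefty2 (0.135). Sdc4 had 65.7 ± 5.72 in High, 121 ± 9.32 in Medium and 299.8 ± 11.9 in Low. No other network gene stood among these 12. By the same measure Pspc1 was nearest to Mycn (0.0310) and Smug1 to its mirror image (0.0319), and Uvrag was nearest to Zbtb17 (0.0569) and Abhd17b to its mirror image (0.0546).

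**Figure D5:**
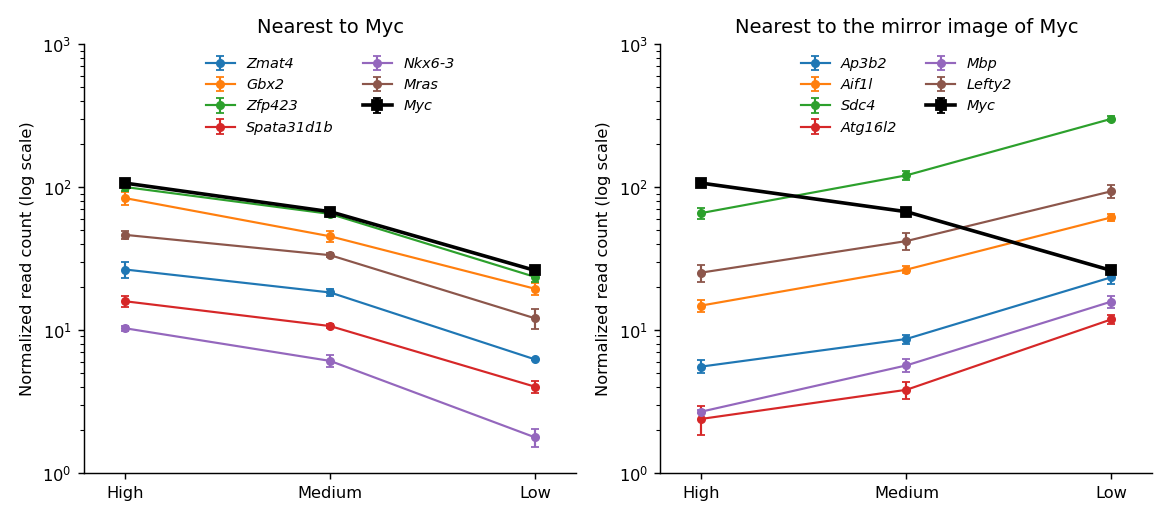
Mean normalized read count (log axis) with SD (n = 3) in High, Medium and Low for Myc (black) and, left, the 6 genes nearest to it and, right, the 6 nearest to its mirror image. The left lines fall from High to Low as Myc does, with Zmat4 at 26.5 in High and 6.22 in Low. Nkx6-3, at 10.3 in High and 1.77 in Low, falls more steeply than Myc on this axis, which has no pseudocount. The right lines climb in the other direction, with Sdc4 at 65.7 in High.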

How the data were processed

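The authors deposited a table of normalized read counts per gene (a signal on a scale close to CPM) for 9 libraries, from single-end reads of 61 nt, per the labels' protocols. Picard, cutadapt, limma and RSEM 1.17 are named, without their roles, per the submitters' processing notes; genome build, annotation and strand use: not given in the sources used here. All deposited values (100%) were whole reads, to within 0.001 read, times a factor for each library, which gave back 11114936 to 16755566 reads per library. Column totals were 953055 to 1026948. Unnamed genes (85, with 1.71% to 2.53% of the signal) stayed in the tests, and the table held 250 zeros.

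Groups came from the labels. limma 3.58.1 (R 4.3.3) with a variance trend was fitted to log2(signal + 1 CPM of the column total) with population as the only term, over all 13499 genes, each at 1 CPM in at least 3 libraries. Fold changes on this scale understate those of low genes, and plain folds are mean signal over mean signal. The fit was tested on simulated data. Identifiers matched GENCODE M21 (GRCm38) for 13418 genes (99.4%), the source of coordinates and lengths. Promoter windows are RefSeq's on GRCm38.p6.

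The members and lists were chosen with earlier results of these data known. Named list genes are up to 4 called ones with the smallest adjusted p. Itga1, Itgb1, Sycp3, Tdrkh, Taf7l and Tdrd1 are named beside these, to show the other direction. Alternatives changed the filter, pseudocount, normalization, variance trend, replicate block, transcript length, left-out libraries, and edgeR 4.0.16 and DESeq2 1.42.0 on recovered reads; sample weights estimated gene by gene and leaving out Low replicates 1 and 2 together were added after seeing the data. The labels share replicate numbers. Deviations from the group means correlated between same-numbered High and Low libraries at 0.53, 0.26 and 0.18. Low replicate 2 correlated more with High replicate 3 (0.31) than with High replicate 2 (0.26). The replicate block was an alternative and not part of the main fit. For High and Medium (0.35, 0.17 and -0.04) and Medium and Low (0.24, 0.43 and -0.11) not all same-numbered correlations were positive.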

Additional observations from a re-analysis of the deposited data

How the results depend on the processing

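Mycn stayed lower and Zbtb17 higher in High than in Low under every alternative run, and the calls for Mycn and Zbtb17 that were lost without a library are given above. Mycn also did not pass without the variance trend (limma adjusted p = 0.0678) or without Low replicates 1 and 2 (0.0677). Mycl passed only with sample weights (High against Low adjusted p = 0.00881, High against Medium 0.0253), as did Mycn for Medium against Low (0.0378). These weights were 6.60 for Low replicate 3, 0.218 for Low replicate 1 and 0.409 for Low replicate 2. Low therefore rested mostly on 1 library in every result given with sample weights. With the replicate block Mycn had limma adjusted p = 0.0203 and Zbtb17 0.0118, Max passed only together with the length correction (0.00793), and the block changed no other call of a network gene for High against Low.

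The counts of network genes called below include Myc, by whose level the sorted populations were named. For High against Low the number of genes called was 7850 with sample weights, 5239 with the replicate block, 5954 with the block and the length correction, and 2266 to 5757 without 1 library; the network genes called were 1 without Low replicates 1 and 2, and 1 to 3 without 1 library. For High against Medium it was 84 without the variance trend, 801 with sample weights, 203 with the replicate block, 301 with the length correction, 488 with both, 260 in DESeq2, 180 without Low replicates 1 and 2, and 11 to 208 without 1 library; the network genes called were 2 with sample weights and 0 to 1 without 1 library. For Medium against Low it was 7044 with sample weights, 3656 with the replicate block, 2649 with the length correction, 3754 with both and 497 to 5060 without 1 library, with 2 network genes with sample weights. For the distance of Medium from the midpoint it was 1153 with sample weights, 1 with the replicate block, 2 with the length correction, 2 with both, 21 in DESeq2 and 0 to 70 without 1 library.

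The signs of some network genes that had not passed turned, in log2. For High against Low these were Mxd1 without Low replicates 1 and 2 (0.0147), Mlx with quantile normalization (-0.00646) and equal totals (-0.0137), and, over the alternatives that leave out libraries, Mxd1 (-0.281 to 0.0147), Mxd3 (-0.306 to 0.0160) and Mlx (-0.0250 to 0.0753). For High against Medium they were Mxi1 with the length correction (0.0147, also with the block) and, without 1 library, Mnt (-0.00213 to 0.101), Mxd3 (-0.238 to 0.0473) and Mxi1 (-0.0879 to 0.0184). For Medium against Low they were Max with quantile normalization (-0.0529), weights (-0.0778) and without Low replicates 1 and 2 (-0.0636); Mnt with the length correction (-0.0138, also with the block) and without both Low libraries (-0.0331); Mxd1 with a pseudocount of 5 (0.000719), quantile normalization (0.0447), weights (0.256), edgeR (0.00647), DESeq2 (0.0156) and without both Low libraries (0.188); Mxd3 with weights (0.00714), length correction (0.0556, also with the block) and without both Low libraries (0.0197); and Mlx with the length correction (0.0113, also with the block). Over the alternatives that leave out libraries, in this comparison, Max ran from -0.0636 to 0.0630, Mnt from -0.0331 to 0.133, Mxd1 from -0.139 to 0.188 and Mxd3 from -0.215 to 0.113. The cause was not tested. A filter of 5 CPM left no value for Mxd1, which had 33 to 79 reads per library.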
